A study of Mus musculus with 2 samples.

Results

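Most mitochondrial proteins are encoded in the nucleus, made in the cytosol and drawn into the organelle by translocases, and the genes of this import machinery are described here in embryonic mouse forebrain. The members are the rows of both gene tables whose gene ID maps in GENCODE release M21 to a symbol of the Tomm or Timm series followed by a digit, or to Pam16, Grpel1, Grpel2, Dnajc15 or Dnajc19, with names carrying -ps left out. The rule took 31 of 43346 gene rows. Of these, 30 are protein-coding genes and 1, Tomm6os, is an antisense RNA over Tomm6 that the rule takes by its name alone.

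The tissue was forebrain of healthy B6NCrl embryos at 11.5 days, with both sexes pooled. Replicate 1 came from 109 embryos and replicate 2 from 88, and each library was built by a SmartSeq protocol from RNA above 200 nucleotides, in an amount equal to that of 1 cell. The RNA was of pooled tissue, although the assay is labelled as single cell. No genotype or treatment was compared, so the design has 1 group of 2 libraries, and a difference between them has no replicate check and carries no p-value. The libraries held 27395002 and 27977544 expected counts over gene rows, where an expected count is an estimated number of reads. Levels are TPM, transcripts per 1000000 transcripts, which correct for transcript length and can be compared between genes. They are given for replicate 1 and then replicate 2. The forebrain markers Otx2, Lhx2 and Emx2 were detected in both libraries, and Six3 was at 2.07 and 0 TPM. All 6 markers of midbrain, hindbrain and spinal cord had 0 counts. Of 5 erythroid markers 4 were detected in both libraries, led by Hbb-y, with a summed TPM of 19755 and 24172. The sums were 129 and 106 for endothelium (4 of 5 detected, Esam highest, Pecam1 at 19.7 and 0.02) and 336 and 268 for mesenchyme (3 of 5, Lum highest in the mean, Twist1 at 0 in replicate 1). For myeloid cells the sums were 115 and 27.2 (2 of 5, Fcer1g highest, Ptprc at 0 in both). The part of these other cells in the levels below was not tested, and in pooled tissue fewer cells of a type and less RNA per cell cannot be told apart.

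Import starts at the TOM complex of the outer membrane, where receptors pass a precursor to the Tomm40 channel. Presequence-bearing proteins then cross the inner membrane through the TIM23 channel and are pulled into the matrix by the PAM motor, while carrier proteins are escorted by the small Tim chaperones to the TIM22 complex. Dividing neural progenitors and young neurons rely on this route for nearly all proteins of their mitochondria.

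The small Tims of the intermembrane space are short chaperones that shield hydrophobic precursors, and each holds 2 pairs of cysteines that are joined by disulphide bonds. The stretch that carries both pairs is shown for the 7 small Tim genes because it defines the family. It was not compared with the levels described below. Each was read from the GENCODE M21 transcript with the highest coding level, is coding exon sequence of assembly mm10, and runs 5′ to 3′ from the first cysteine codon to the last, with the 4 cysteine codons in capitals. Positions count from the A of the start codon.
Timm8b, chromosome 9, coding bases 106 to 177: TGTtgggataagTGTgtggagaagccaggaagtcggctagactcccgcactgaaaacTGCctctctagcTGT
Timm8a1, chromosome X, coding bases 127 to 198: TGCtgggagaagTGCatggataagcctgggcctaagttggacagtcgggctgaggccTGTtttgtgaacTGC
Timm8a2, chromosome 14, coding bases 127 to 198: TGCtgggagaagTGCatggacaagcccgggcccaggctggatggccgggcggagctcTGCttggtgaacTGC
Timm13, chromosome 10, coding bases 136 to 207: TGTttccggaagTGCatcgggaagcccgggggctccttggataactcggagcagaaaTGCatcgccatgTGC
Timm9, chromosome 12, coding bases 82 to 156: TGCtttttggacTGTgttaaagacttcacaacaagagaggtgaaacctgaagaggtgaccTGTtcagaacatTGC
Timm10, chromosome 2, coding bases 85 to 162: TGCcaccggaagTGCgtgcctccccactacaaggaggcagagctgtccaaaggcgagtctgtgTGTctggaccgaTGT
Timm10b, chromosome 7, coding bases 73 to 147: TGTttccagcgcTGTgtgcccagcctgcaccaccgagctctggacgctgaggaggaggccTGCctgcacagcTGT
In all 7, 3 codons separate the cysteines of a pair. The pairs lie 14 codons apart in Timm8b, Timm8a1, Timm8a2 and Timm13, 15 in Timm9 and Timm10b, and 16 in Timm10. Timm8a1 and Timm8a2 have 77.3% of 291 aligned coding bases identical, and Timm8a1 and Timm8b 60.2% of 249.

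The import machinery was well represented in both libraries. Detection was set at 1 TPM or more. By that limit 27 of 31 members were detected in both libraries, against 16.6% of all gene rows and 30.4% of protein-coding genes. Tomm40 and Tomm6os were each detected in 1 library, and Tomm20l and Timm8a2 had 0 counts in both, which by counting error alone allows up to 0.110 CPM (counts per 1000000 gene counts) in the first library and 0.107 in the other. The median level was 78.2 TPM for the 29 members whose mean reached 1 TPM, which lies at percentile 80.3 of protein-coding genes above the same limit, whose median was 22.9. Together the members summed to 3599 ± 164 TPM (SD, n = 2), or 0.348% and 0.371% of the total. They took 0.280% of the gene counts in replicate 1 (95% Clopper-Pearson interval 0.278 to 0.282) and 0.260% in replicate 2 (0.258 to 0.262), intervals that cover counting error only.

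**Figure D1:**
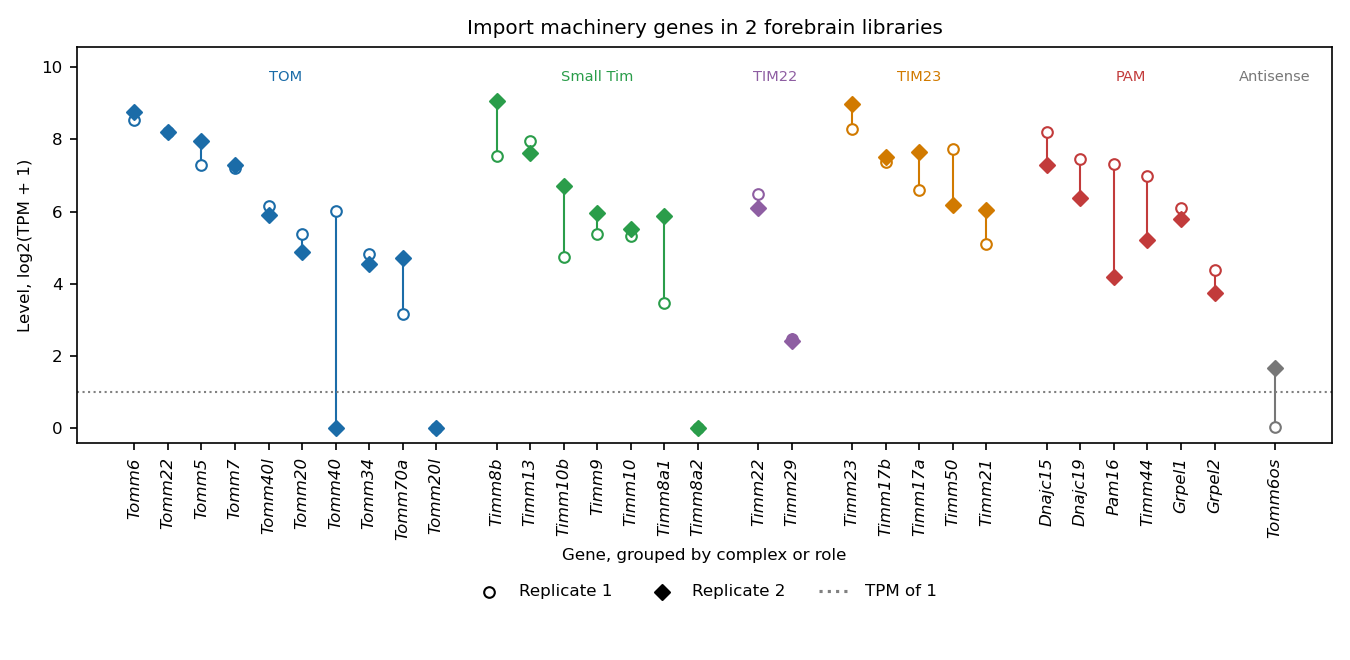
Level of each of the 31 members as log2(TPM + 1), grouped by complex, with replicate 1 as open circles and replicate 2 as filled diamonds joined by a line. Tomm6, Tomm22 and Tomm7 nearly coincide between libraries, while Tomm40 falls to 0 in replicate 2 and all 6 PAM genes lie higher in replicate 1.

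Of the 10 protein-coding Tomm genes, grouped here by name as the outer membrane complex, 8 were detected in both libraries. The small subunit gene Tomm6, whose product helps to hold the complex together, was the highest at 373 and 429 TPM. Of its windows of 100 bases, 85.7% recur in Gm21981, an overlapping gene model that had 0 counts. Tomm22, the central receptor, stood at 295 and 295 TPM from 6136 and 6072 counts. The other small subunit genes followed, Tomm7 at 146 and 157 TPM and Tomm5 at 154 and 249. These 4 genes held the highest levels of the complex in either library. The receptor genes Tomm20 and Tomm70a lay well below the small subunits. Tomm20, the presequence receptor, was at 40.4 and 28.4 TPM, and Tomm70a, the receptor of carrier precursors, at 8.04 and 25.3. Nit2, which overlaps Tomm70a by 41 bases on the other strand, had 1 and 831 counts, and its part in the Tomm70a values was not tested. In counts, which are not corrected for length, Tomm20 with its 4986-base model drew 4421 and 3073, against 3359 and 3563 for Tomm7 at 1125 bases, so Tomm20 was the higher of the pair in replicate 1 alone. Tomm34, which despite its name is a cytosolic co-chaperone, was at 27.2 and 22.2 TPM. Tomm20l, a relative of Tomm20, was the gene at 0 counts in both.

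The channel gene Tomm40 (ENSMUSG00000002984.12, chromosome 7, 19701313 to 19715438, minus strand) had 2089 counts and 64.3 TPM in replicate 1 and 0 counts in replicate 2. In CPM the first library was at least 711-fold higher, taking the 3 counts that a count of 0 allows as the floor for the other. This bound covers counting error only. The authors' posterior interval ran from 60.4 to 66.1 TPM in replicate 1 and from 0.0471 to 0.705 TPM in replicate 2, which allows a smaller ratio. Its paralogue Tomm40l did not share this gap, at 70.9 and 58.5 TPM from 2169 and 1915 counts. The coding sequences of the pair, read from Tomm40-202 and Tomm40l-203, are 70.0% identical over 923 aligned bases. Their longest shared run, coding bases 712 to 728 of Tomm40 and 553 to 569 of Tomm40l, is shown.
Shared run: caccggcggccaggaga
Effective lengths in the tables are 99 bases short of full length, so windows of 100 bases were compared, and the coding sequences of the pair have none in common. Of the windows of 100 bases in the leading Tomm40l transcript, 66.6% also occur on the opposite strand in Nr1i3, which had 6 and 6.05 counts. The part of read assignment between genes in the Tomm40 and Tomm40l values was not tested. Of the 27 members averaging 10 TPM or more, Tomm40 alone had under 1% of its depth-scaled counts in 1 library, as did 18.1% of all genes above that level.

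Tomm6os, the antisense RNA, had 2.06 and 136 counts, or 0.03 and 2.16 TPM. It overlaps Tomm6 by 777 bases on the other strand. Use of strand in the counting is not given in the sources used here, so its reads and those of Tomm6 may not be separable.

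Among the small Tims, 6 of 7 genes were detected in both libraries, and 5 of those 6 were higher in replicate 2. Among all genes averaging 10 TPM or more, 50.6% were higher in replicate 2. The summed TPM of the small Tims was 548 and 995, which is 772 ± 316 (SD, n = 2). Timm8b (chromosome 9, 50603910 to 50605320, plus strand) led in replicate 2, at 187 and 533 TPM from 1790 and 5056 counts. Timm13, the partner of the Timm8 proteins, led in replicate 1, at 246 and 195 TPM, and was the member of the group that went the other way. Timm8a1 (chromosome X, 134537256 to 134541865, minus strand), the mouse counterpart of a human deafness-dystonia gene, was at 10.1 and 57.3 TPM. So replicate 2 was the higher library for both detected Timm8 genes, and Timm8b held most of the family's TPM in each, at 94.9% and 90.3%. Timm9 and Timm10, which form the general carrier chaperone, stood close to each other within each library, at 40.5 and 61.4 TPM for Timm9 and at 38.7 and 44.7 for Timm10. Timm10b, which docks that chaperone on the TIM22 complex, was at 25.7 and 104 TPM from 294 and 1059 counts. Timm10b led its pair with Timm10 in replicate 2 alone, with 39.9% and 70.0% of their TPM. Some transcripts counted to Timm10b in the tables are assigned in M21 to Gm45799, a same-strand gene that shares 58.3% of the windows of its leading transcript. Of the Timm10b TPM, Gm45799-201 held 0 and 25.4. Timm10b-205, a transcript that keeps an intron, held 6.13 and 28.4. The 70.0% share in replicate 2 is therefore not all coding RNA of Timm10b.

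Neighbours and copies moved with some of these genes. The gene Arfip2 overlaps Timm10b by 361 bases on the other strand and had 222 and 4419 counts. In the leading Timm8a1 transcript 38.8% of windows recur in Gm9797, annotated as a transcribed processed pseudogene, which had 45.4 and 941 counts. With Gm9797 added, Timm8a1 came to 343 and 2621 counts, a gap in the same direction. Nkapd1, which overlaps Timm8b by 81 bases on the other strand, went the opposite way to Timm8b, with 287 and 1 counts. The part of these neighbours in the levels of Timm10b, Timm8a1 and Timm8b was not tested. No window of the leading transcripts of Timm8b, Timm9, Timm10 or Timm13 recurred in another gene.

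The inner membrane TIM22 complex, which inserts carrier proteins, showed a wide gap in level between its genes and little between libraries. Timm22, the channel gene, was at 88.7 and 67.8 TPM (78.2 ± 14.8, SD, n = 2). Timm29, a subunit found in animals, was at 4.60 and 4.32 TPM (4.46 ± 0.198, SD, n = 2), the lowest level of any member detected in both libraries.

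All 5 genes of the TIM23 channel were detected in both libraries, with a summed TPM of 818 and 1023. The channel gene Timm23 was the highest member in the mean, at 313 and 503 TPM from 7492 and 10986 counts. Timm17b, a channel partner on the X chromosome, hardly differed, at 165 and 183 TPM. Its autosomal paralogue Timm17a was at 96.8 and 201 TPM, a log2(TPM + 1) difference of 1.04 that falls to 0.98 in CPM. So Timm17b held 63.1% of the TPM of the pair in replicate 1 and 47.7% in replicate 2. In coding transcripts alone Timm17b was the higher of the pair in both libraries. It had 116 and 118 coding TPM, against 30.7 and 72.8 for Timm17a. Timm21, which links the channel to the respiratory chain, was at 33.3 and 65.0 TPM. Against these 4 genes, all higher in replicate 2, stood Timm50, the receptor that takes presequences from the outer membrane, at 210 and 71.9 TPM from 5478 and 2258 counts. By counts scaled to depth Timm17b was instead slightly higher in replicate 1, with a log2 CPM difference of -0.21.

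The copy-rich gene here was Timm23. Of its windows 85.8% recur in Gm10273, annotated as a protein-coding gene, which had 912 and 462 counts. The sum of the pair was 8405 and 11448 counts, and replicate 2 was the higher library for the sum as for Timm23 alone.

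All 6 genes of the PAM motor were detected in both libraries, and all 6 were higher in replicate 1, beside 49.4% of all genes at 10 TPM or more. Their summed TPM was 843 and 358, or 601 ± 343 (SD, n = 2), and the median of their differences was -0.996, against 0.02 over all genes at that level. Differences are taken from replicate 1 to replicate 2 in log2(TPM + 1), so a negative value means a higher level in replicate 1. The highest were the J-protein genes Dnajc15, at 293 and 156 TPM, and Dnajc19, at 175 and 81.9, whose products are counterparts of the J-protein that stimulates the motor chaperone in yeast. Fxr1, which overlaps Dnajc19 on the other strand, went the opposite way with 248 and 2016 counts. The 2 kept nearly the same proportion in both libraries, Dnajc15 with 62.6% and 65.6% of their TPM. Pam16 (ENSMUSG00000014301.8, chromosome 16, 4616464 to 4624988, minus strand), the J-like regulator, showed the largest gap of the motor, at 160 and 17.2 TPM from 1778 and 190 counts. The nucleotide exchange factor genes had the smallest gaps, Grpel1 at 68.2 and 54.2 TPM and Grpel2 at 19.9 and 12.5. Grpel1 held most of that pair's TPM, 77.4% and 81.2%.

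Pam16 also has a near-identical copy. Of its windows 87.5% recur in Gm9803, annotated as protein-coding, which had 522 and 93.9 counts. The sum was 2300 and 284 counts, so replicate 1 stayed the higher library. Glis2, which overlaps Pam16 on the other strand, had 1174 and 484 counts, and its part in the Pam16 gap was not tested. The motor chaperone, encoded by Hspa9, went the other way to the PAM genes, at 70.7 and 244 TPM from 4665 and 15725 counts. So did Dnlz, which keeps that chaperone soluble, at 7.34 and 22.9 TPM and named after its values were seen. Of the 6 matrix chaperones and partners listed, 4 were higher in replicate 2 and 2 in replicate 1, Hspd1 among the latter at 423 and 349 TPM. With 1 library per pool, the order of the libraries is a description of these libraries alone.

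Timm44, which anchors the motor chaperone at the channel (ENSMUSG00000002949.10, chromosome 8, 4259731 to 4275913, minus strand), differed in its transcripts as well as its level. The gene was at 127 and 36.0 TPM from 4461 and 605 counts. Its full-length coding transcript, Timm44-201, had 3189 counts in replicate 1 and 1.31 in replicate 2, or 84.3 and 0.03 TPM. Transcripts classed as retained introns, which keep an intron and are not counted as coding, summed to 42.4 and 36.0 TPM. They made up 33.5% of the gene's TPM in replicate 1 and 99.8% in replicate 2. In counts the retained-intron class had 1272 and 602, so it too was higher in replicate 1, by less than the coding transcript on either scale. No window of Timm44-201 recurs in another gene, but how reads are divided between transcripts of 1 gene is an estimate.

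**Figure D2:**
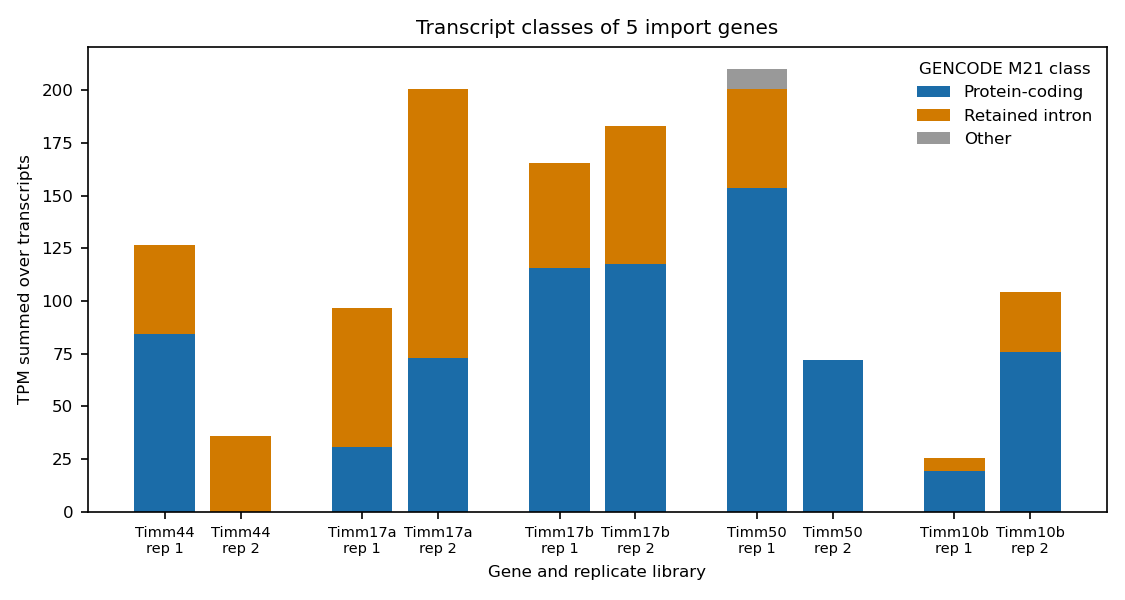
TPM of 5 genes in each library, stacked by the class that GENCODE M21 gives their transcripts. The coding part of Timm44 is 84.3 TPM in replicate 1 and 0.03 in replicate 2, and the retained-intron class is the larger part of Timm17a in both libraries.

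Other inner membrane genes carried retained-intron transcripts but kept coding transcripts in both libraries. Timm17a was led in both libraries by the retained-intron transcript Timm17a-204, with 68.3% and 63.7% of its TPM, and its coding transcripts summed to 30.7 and 72.8 TPM. For Timm17b the retained-intron share was 30.01% and 35.8%. Timm50 had a retained-intron share of 22.5% in replicate 1 and 0% in replicate 2, where the coding transcript Timm50-201 took all of it. Retained-intron transcripts held over 50% of the TPM for 1 of 10 members with both classes in replicate 1 and for 2 of 10 in replicate 2, against 11.2% and 10.9% of 2302 such genes that reached 10 TPM in each library. By the median the members lay higher. Their median retained-intron share was 11.9% and 12.7%, against 0.559% and 0.699% for the 2302 genes, a difference that was not tested. Of 26 members at 5 TPM or more in each library, 10 have a single transcript in the tables, and for 13 of the other 16 the leading transcript did not change. The exceptions were Timm44, Timm10b and Tomm40l. The 1 transcript of Dnajc15 in the tables is classed in release M21 as a target of nonsense-mediated decay, so sums over coding transcripts leave that gene out.

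Across the machinery, 27 of 31 members averaged 10 TPM or more, and 10 of these differed at least 2-fold between libraries, that is, by 1 or more in log2(TPM + 1). Among all 7680 genes above that level 51.3% did. Those higher in replicate 1 were Tomm40, Pam16, Timm44, Timm50 and Dnajc19, 5 of 27, against 24.7% of all genes. Those higher in replicate 2 were Timm8a1, Timm10b, Tomm70a, Timm8b and Timm17a, also 5, against 26.6%. The share of genes that differed 2-fold fell with level, so the members are better read against genes of like level. From 10 to 50 TPM, 3 of 8 members differed 2-fold, with 65.0% of all genes. From 50 to 100 TPM it was 3 of 7, with 42.9% of all genes, from 100 to 200 TPM 3 of 5, with 28.9%, and from 200 to 1000 TPM 1 of 7, with 11.99%. The median difference over the 27 members was -0.00, with 14 higher in replicate 1 and 13 in replicate 2, so the members as a whole had no common direction.

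**Figure D3:**
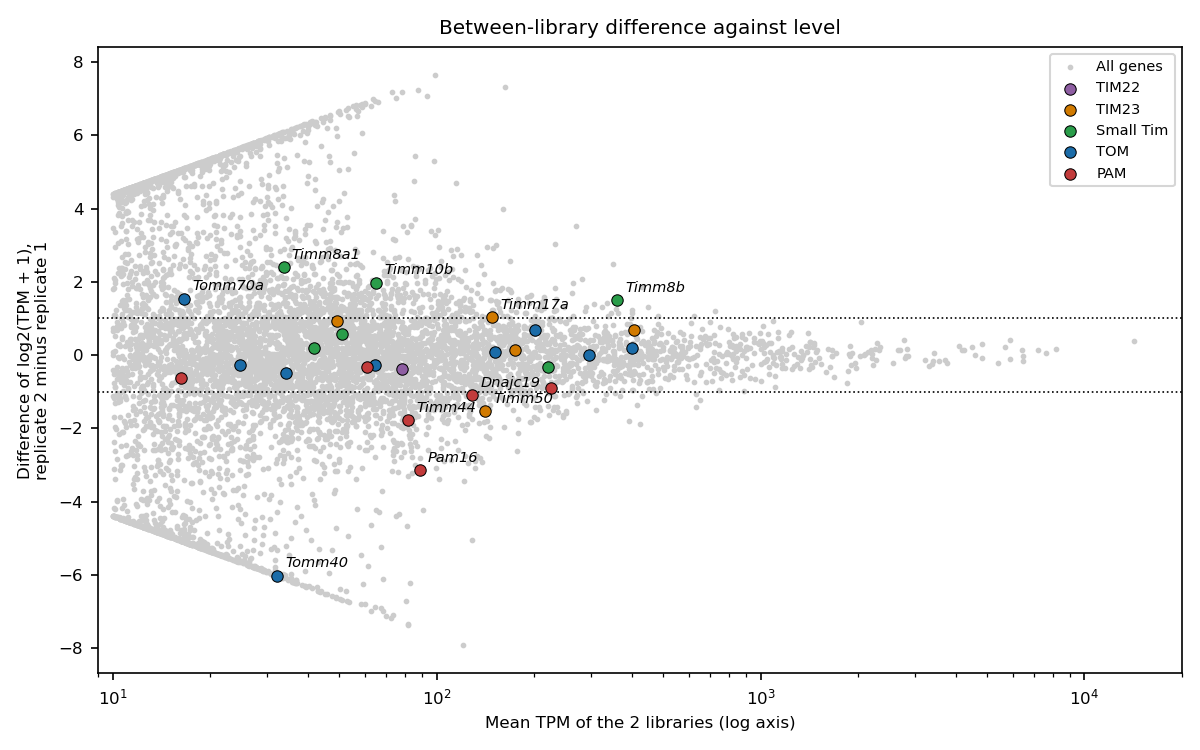
Between-library difference of log2(TPM + 1) against mean TPM for every gene averaging 10 TPM or more (grey) and the 27 members above that level, coloured by complex. Dotted lines mark a difference of 1 in either direction, and the 10 members beyond them are named, with Tomm40 at -6.03 and Timm8a1 at 2.40 as the extremes.

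Beside other nuclear genes for mitochondria, the import genes sat lower. The median level was 110 TPM for 77 genes of mitochondrial ribosomal proteins and 325 TPM for the 86 genes of the respiratory chain and ATP synthase that averaged 1 TPM or more, against 78.2 TPM for the import machinery. The respiratory set was taken by symbol, so it also holds Ndufaf genes, which encode assembly factors and not subunits. Of those above 10 TPM, 29 of 76 ribosomal protein genes (38.2%) and 16 of 83 respiratory genes (19.3%) differed 2-fold, beside 37.0% of the import members. No test compares these sets.

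Of 33 further import genes listed from knowledge of the pathway, 28 were detected in both libraries, against 16.6% of all gene rows and 30.4% of protein-coding genes, 3 in 1 library and 2 in neither. Of the 29 at 10 TPM or more, 11 differed 2-fold, against 51.3% of all genes at that level. Among the matrix chaperones and their partners all 6 were detected in both, led by Hspe1 at 565 and 604 TPM and Hspd1 at 423 and 349, the pair that folds imported proteins, and by Hspa9. Presequence proteases were detected in both for 4 of 6. Pmpcb and Pmpca, the subunits of the processing peptidase, were at 101 and 125 TPM and at 87.0 and 72.9, and Immp1l, of the inner membrane peptidase, at 86.4 and 121. Its partner Immp2l had 0 counts in both libraries.

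All 7 outer membrane sorting genes passed detection in each library, with the insertase gene Mtch2 highest at 274 and 262 TPM. Mtx1 and Mtx2, of the sorting and assembly machinery, were at 291 and 66.1 TPM and at 85.0 and 68.2. Of 6 genes for oxidative folding and insertion, 5 were detected in both. Romo1, a small partner of the TIM23 channel, was at 412 and 251 TPM. Chchd4, which oxidises the cysteines of the small Tims, was at 93.3 and 112 TPM, and Aifm1, its partner, at 108 and 72.4. Of 8 quality control proteases 6 were detected in both, with Clpp at 154 and 57.3 TPM, Yme1l1 at 56.1 and 71.6, and Htra2 at 34.5 and 40.3. Afg3l2 was below detection, with 1 count and 0. Oma1 stands out by its counts, named here after its values were seen, with 2447 against 1, a CPM ratio of 2499 (448 to 98746, 95% limits from counting alone). The authors' posterior intervals for Oma1, 57.0 to 62.2 and 0.0372 to 0.709 TPM, allow a smaller ratio. Among all genes averaging 10 TPM or more, 18.1% had under 1% of their depth-scaled counts in 1 library. The other genes detected in 1 library, also named after their values were seen, were Timmdc1 at 0.49 and 31.2 TPM and Xpnpep3 at 0.43 and 12.2. Despite its name, Timmdc1 encodes an assembly factor of respiratory complex I and not a translocase. It is counted here among the genes for oxidative folding and insertion.

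**Figure D4:**
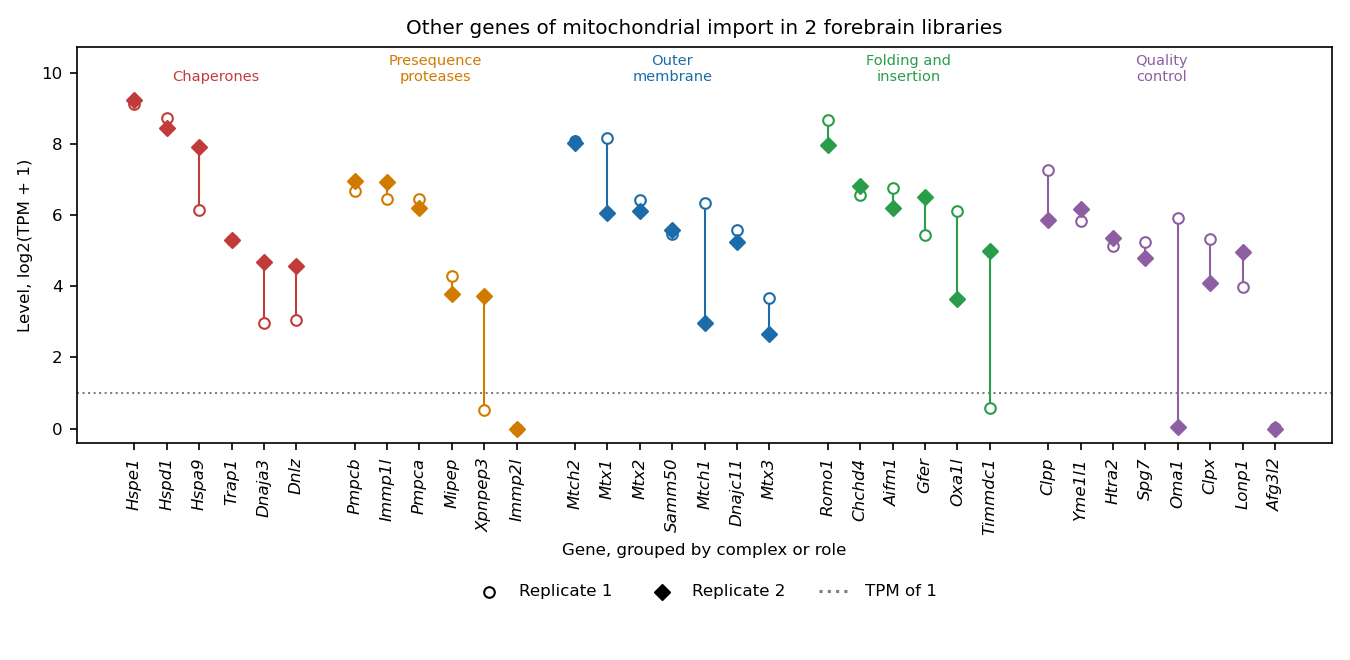
Level of the 33 genes listed as further import genes as log2(TPM + 1), grouped by role, with replicate 1 as open circles and replicate 2 as filled diamonds. Hspe1, Hspd1 and Mtch2 are high and close in both libraries, while Oma1, Timmdc1 and Xpnpep3 pass a TPM of 1, the dotted line, in 1 library alone.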

How the data were processed

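Gene and transcript tables of 2 libraries were used as deposited. Per the file headers, the authors' tables hold expected counts (estimated reads, not normalized) and TPM over all rows, spike-ins included, and the deposited transcript tables give the percent of a gene's TPM in each transcript. The authors' posterior limits of TPM were treated as a score. The text deposited with them names assembly mm10 and annotation M4. For aligner, quantification program and strand use: not given in the sources used here.

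Symbols, classes, coordinates (1-based, mm10) and sequences came from GENCODE M21, which matched 42462 of 43346 gene IDs (98.0%). Spike-ins and numbered rows were left out of counts and tests. Detection meant a TPM of at least 1, and differences are replicate 2 minus replicate 1 of log2(TPM + 1), which understates low genes. Windows of 100 bases of each leading transcript were searched in all M21 transcripts, both strands. For some transcripts the M21 sequence differs in length from the model that was counted, so window shares describe the M21 models. Tomm70a-201, for example, gave 5865 windows from M21, while its counted model has 3778 bases. Coding sequences were aligned globally with Biopython 1.88. Other scalings used edgeR 4.0.16 (TMM) and DESeq2 1.42.0 (size factors). No condition was compared and no p-value computed. The replicates are separate pools, and reads carried no molecular identifier that would make them independent molecules. Named genes are every member and, of each further list, the 3 highest and those under a TPM of 1 in both libraries. The members and lists were chosen with earlier results of these data known. One marker result is not reported here.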

Additional observations from a re-analysis of the deposited data

How the results depend on the processing

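The count of members detected in both libraries was 27 and ranged from 25 to 28 over the 7 alternatives tried, which were TPM limits of 5 and 0.1, posterior mean TPM, 10 expected counts, each library alone (28 and 28), and coding transcripts only. The last was added after seeing the data and drops Timm44 and Dnajc15. Further import genes detected ranged from 28 to 30, and with each library alone were 29 and 30. The 2-fold count of 10 ranged from 9 with TMM scaling to 11 without the level filter, apart from 1 setting also added afterwards. It was 7 when the 7 members sharing at least 20% of their windows with another gene were left out. That setting also leaves fewer members to count, so the 7 is not out of 27. All 6 PAM genes were higher in replicate 1, and 5 of 6 small Tim genes higher in replicate 2, under the 4 scalings tried, which moved the median of all genes by less than 0.1. The summed TPM was 3890 when rescaled over gene rows without spike-ins, since the spike-ins hold 8.44% and 6.56% of TPM, and 3483 to 3715 with each library alone. Paralogue leaders matched in 5 of 7 families under each alternative tried, and leading transcripts in 12 with a gene TPM of at least 20. The alternatives for paralogue leaders did not include coding transcripts only, by which Timm17b led Timm17a in both libraries. No 2-fold difference changed direction among 161 recomputed member values, of which 9 moved, and Timm17b, near 0, changed sign in CPM (-0.21). But that of Timm44 grew from -1.79 to -6.37 in coding transcripts. No paired analysis was possible because there is one group. A 2-fold count cannot be made from 1 library.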

Other observations

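Some members were read as mixtures of transcripts. Timm22 divided its TPM over 3 coding transcripts in much the same way in each, at 44.7% and 39.1% for the leading one, 35.5% and 33.7% for the next, and 19.7% and 24.1% for the last. The leading transcript of Tomm40l held 29.6% of its TPM in replicate 1 and a different one led replicate 2 with 29.9%, and the transcript classed as a target of nonsense-mediated decay, Tomm40l-206, held 22.0% and 24.6%. Tomm34 was read from Tomm34-202 alone in replicate 1 and from Tomm34-202 at 47.1% and Tomm34-201 at 38.6% in replicate 2.

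For 2 small subunit genes of the outer membrane complex, a second coding transcript took a larger share in replicate 2. Tomm6-201 held 3.20% and 11.8% of the TPM of Tomm6, and Tomm5-202 held 0.20% and 11.9% of that of Tomm5. These genes were named after their values were seen.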
